A study of Mus musculus with 4 samples.

Results

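Cadherins, integrins and the immunoglobulin adhesion molecules are the surface proteins by which neurons and glia hold on to each other and to the extracellular matrix. The set described here held every non-control probe set of the array whose single annotated gene symbol was L1cam or Chl1 or began with Cdh and a digit, Pcdh, Ncam, Cntn and a digit, Itga, Itgb or Ctnn, without the endothelial cadherin Cdh5. It comprised 75 probe sets of 48 genes, out of 10833 probe sets of 8251 genes with 1 symbol, and 12422 non-control probe sets in all. They fell into 16 probe sets for 12 cadherin genes, 3 for 2 protocadherin genes, 11 for 7 catenin genes, 11 for 7 immunoglobulin adhesion genes, 21 for 12 integrin alpha chains and 9 for 6 integrin beta chains. The Itgb prefix also took 4 probe sets of 2 further genes, Itgb1bp1, whose product binds the tail of the integrin beta 1 chain, and Itgb2l, an integrin beta 2-like gene. Members were chosen by name and not by their signal.

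The RNA came from area CA1 of the hippocampus of young male C57BL/6J mice, an inbred laboratory strain. The 4 samples came from control animals that were only handled, each timed from the last shock of other, experimental animals, with 1 array at 1, 2, 4 and 6 hours. Single mice and pools are not distinguished in the labels. Time, animal, dissection and array thus all enter the spread, and the number of arrays limits the precision. Shocked mice were not analysed here. Values are deposited signals on a linear scale, in the order of hours unless stated, and differences are on the log2 scale after quantile normalization, with signals under 35.1 set to that floor.

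Cadherins bind their like on the opposite membrane through calcium-dependent extracellular repeats, and their tails hold catenins, which join them to actin. In the hippocampus this pairing sits at the edges of synapses. Integrins are pairs of an alpha and a beta chain that bind laminin, fibronectin, vitronectin or leukocyte ligands and signal into the cell through talin and kinases. Ncam1, L1cam and their relatives bind like or unlike partners through immunoglobulin domains and serve axon growth, fasciculation and synaptic plasticity.

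The 1-hour array differed from the rest on 1 of the 2 controls for RNA state. The signal of the 3' control probe set of Gapdh over that of the 5' one was 4.52 at 1 hour, then 1.18, 1.37 and 1.20, while that of beta-actin was 2.34, 2.00, 1.80 and 1.76. Pearson's r of log2 values across the 7453 tested probe sets, a description since genes are no replicates, was 0.927 to 0.933 for pairs holding the 1-hour array and 0.955 to 0.961 for the rest. Of the preset CA1 pyramidal markers 4 of 8 had a probe set, all 4 were tested and none was below the floor, with Wfs1, a membrane protein of CA1 neurons, at 1964 to 2797 and Pou3f1, a transcription factor of that field, at 489 to 726. Of the CA3 and dentate gyrus markers 8 of 10 had a probe set and 6 were tested. Among them Calb2, of mossy cells, had 222 to 399 and Dsp, of granule neurons, 175 to 330, while Prox1, which defines granule neurons, was untested at 25.1 to 59.8. The summed signal, taken over all preset markers with a probe set, tested or not, ran from 10462 to 12197 for that list. It came mostly from Chgb (8131 to 10134). The sum ran from 20242 to 23340 for the 8 astrocyte markers and from 2200 to 3205 for 11 of endothelium and mural cells (7 tested). For 7 meningeal markers (6 tested) it was 10803 to 18949, and for 3 of blood (2 tested) 2491 to 3527. Ptgds (4732 to 11824) was the largest part of the meningeal sum in each sample. Dcn (2124 to 2696) stood in both the meningeal and the CA1 pyramidal list. The RNA is bulk, so fewer cells of a type and less RNA per cell cannot be told apart.

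Of the 75 members, 40 (29 genes) had a mean log2 signal at or above the 40th percentile of all non-control probe sets, a signal of 104.7, and were tested. Of the 75, 47 were above the floor in all 4 samples, 20 were below it in some samples and 8 in all. Among the 40 tested members 10 had a range of 1 log2 unit (2-fold) or more over the samples, or 25.0%, against a background of 17.8% of all tested probe sets. Members had a median SD of 0.30 and all tested probe sets one of 0.25. The 10 wide members were L1cam, Cdh13, Cdh4, Cdh6, Itgb4, Itgax, one probe set each of Itga3, Itgav and Itgb5, and one of Itgb1bp1. The 1-hour sample was the highest or lowest value in 5 of these 10 and in 69.8% of all 1330 tested probe sets of that range. Over the 2-, 4- and 6-hour samples alone 6 members kept a range of 1 log2 unit or more (15.0%), against a background of 9.11%. With an array left out and the rest normalized anew, the count of 10 became 6 without the 1-hour array (15.0% of tested members, 8.94% of all tested probe sets). It became 4 without the 2-hour array (4 of 40, against 13.9%) and 4 without the 6-hour array (10.3% against 13.4%), so that the members then lay below the background. Without the 4-hour array it was 8 of 40, against 12.8%.

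**Figure D1:**
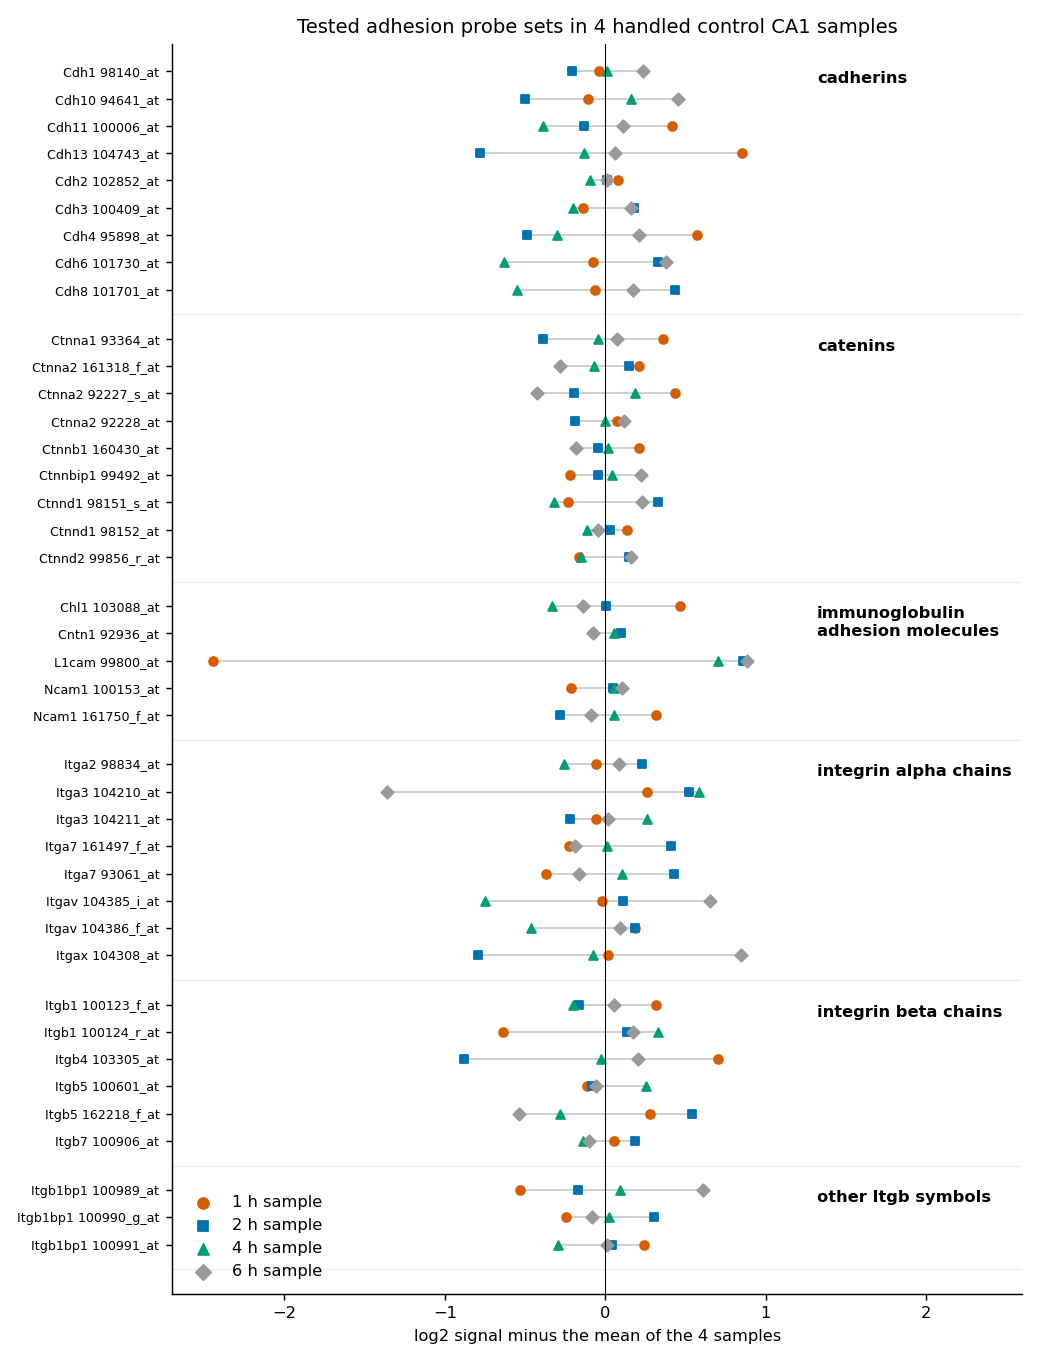
Log2 signal of each of the 40 tested adhesion probe sets in each sample minus its mean over the 4 samples (horizontal axis, log2 units), with 1 row for each probe set, grouped by family, and 1 symbol for each sample. The catenins lie close to the line at 0, while L1cam lies far to the left in the 1-hour sample and 1 probe set of Itga3 in the 6-hour sample.

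**Figure D2:**
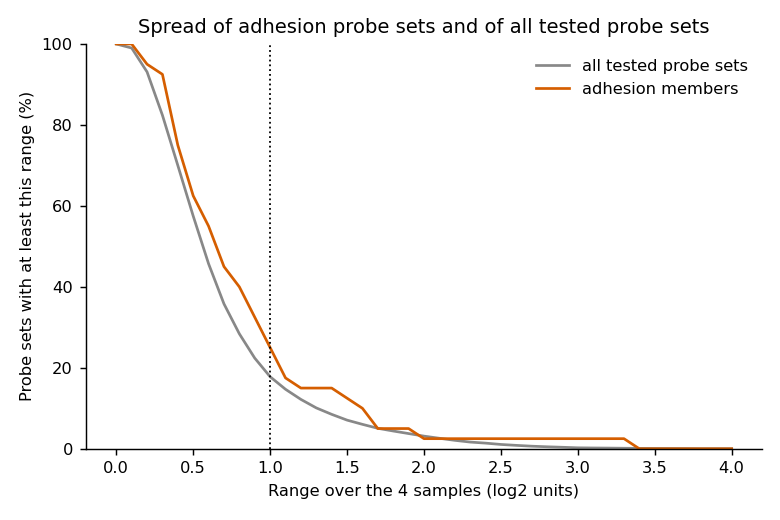
Share of probe sets (vertical axis, percent) whose range over the 4 samples is at least the value on the horizontal axis (log2 units), for the 40 tested adhesion members and for all 7453 tested probe sets. At the dotted line of 1 log2 unit the shares are 25.0% and 17.8%.

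Across all probe sets the fit tested a linear trend from 1 to 6 hours. No member passed in the limma fit over all tested probe sets (0 of 40, smallest adjusted p 0.738), and no probe set of the array did (background 0.0%). At an unadjusted p under 0.05 the fit held 2 members (background 6.27%), 1 with a positive trend (background 3.61%) and 1 with a negative one (background 2.66%). The members with the smallest p were Itgb1bp1 (probe set 100989_at), with a change over the 5 hours of 1.07 ± 0.30 (SE), and Itgb5 (162218_f_at), with -1.01 ± 0.39. L1cam, at 2.50 ± 1.08, and Itga3 (104210_at), at -1.54 ± 0.68, came next. The adjusted p of limma was 0.738 for each of them, with unadjusted limma values of 0.00809, 0.034, 0.0525 and 0.0581. The labels name no separate animals, so these p-values measure only the spread between the 4 samples, which may be technical.

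L1cam, the founding member of the L1 family and a guide of axon growth and bundling, was the adhesion gene that differed most between samples. Its single probe set had a signal of 22.4 at 1 hour, below the floor, and of 352, 308.5 and 357 at the later times. The 1-hour sample lay far below the other 3, which differed little among themselves. Its log2 difference from their mean was -3.26 (SD of the other 3, 0.10), at least 9.56-fold lower since the 1-hour value is only a bound. With the floor at the 40th percentile, a signal of 113.0, the difference was -1.57. Beside it, the Gapdh ratio was 4.52 and the beta-actin ratio 2.34 in that sample, and Map2, a dendritic microtubule protein, had 25.4, 338, 103 and 268. Of the preset neuron markers 10 of 10 were tested, 3 were higher in the 1-hour sample, and their summed signal was 38288 there against 42106 to 46421 later. The part of these in the L1cam value was not tested.

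The other tested members of the immunoglobulin family, Ncam1, Cntn1 and Chl1, each stayed within 2-fold. Ncam1, the neural cell adhesion molecule that carries polysialic acid, had 2748, 3286, 3306 and 3438 with its bright probe set 100153_at, a 1-hour difference of -0.29 (SD of the other 3, 0.03). A second one, 161750_f_at, had 451, 315.5, 387 and 358, with the 1-hour sample on the high side (0.42, SD 0.17), and the third, 100152_at, lay below the floor in all samples. The sign of the 1-hour difference thus depended on the probe set. Cntn1, contactin 1, a lipid-anchored axonal protein, was among the 4 steadiest members with 3252, 3563, 3498.5 and 3220.2 (range 0.18). Chl1, the close homolog of L1cam, moved the other way from it, with 2151, 1565, 1249.6 and 1433 (1-hour difference 0.62, SD of the other 3, 0.17). The second Chl1 probe set had 33.2, 16.3, 30.3 and 105 and was not tested. Ncam2 had 149, 44.3, 114 and 100.3 with probe set 96582_at and 10.3 to 49.2 with the other, and Cntn3 (14.0 to 32.3) and Cntn4 (13.6 to 26.2) were below the floor throughout.

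**Figure D3:**
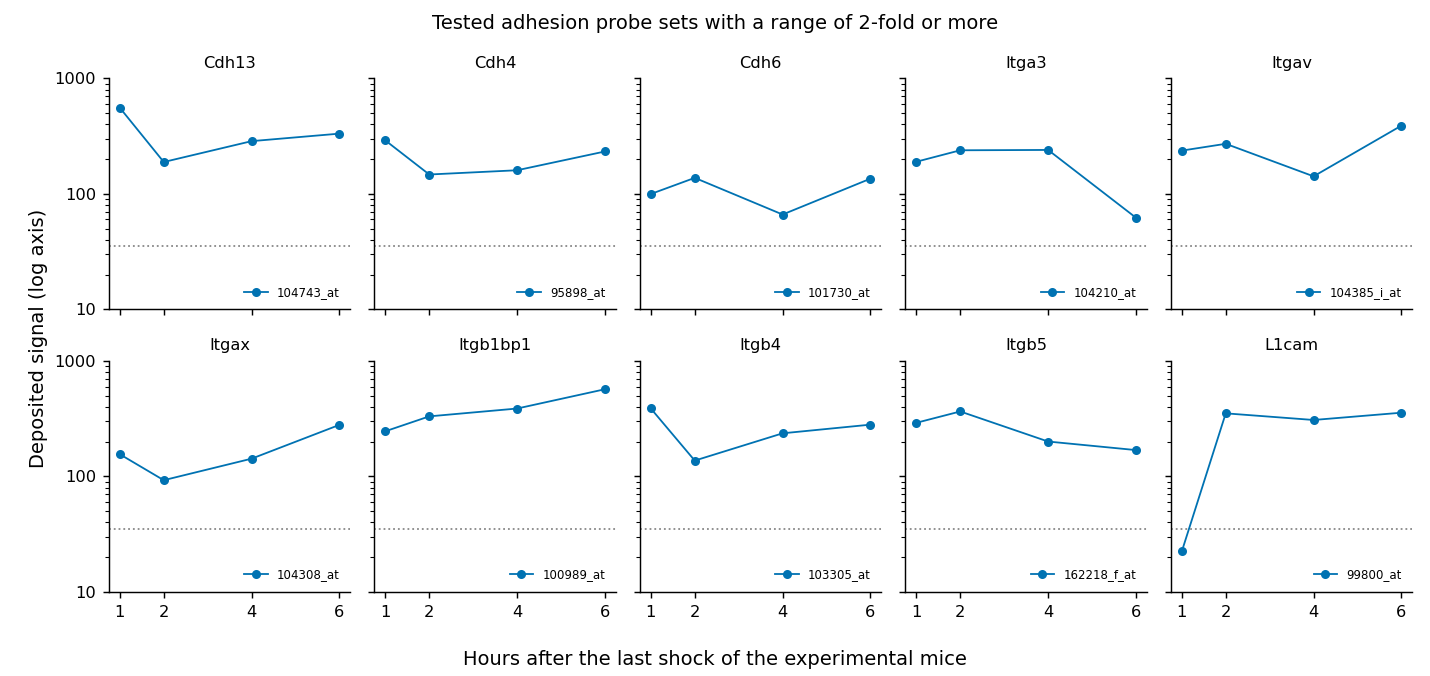
Deposited signal (vertical axis, log scale) of the 10 tested adhesion probe sets with a range of 2-fold or more, against hours after the shock of other mice (horizontal axis); each point is 1 sample, lines only join them, and the dotted line is the floor of 35.1. L1cam falls below the floor at 1 hour, and Cdh13 and Itgb4 have their highest signal at 1 hour and their lowest at 2 hours.

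Promoter windows from RefSeq (build GRCm38.p6), from 250 bases before to 50 after an annotated start, were at hand for 31 of the 48 genes. The first window listed was taken for each gene, and 3 motifs were searched on both strands, overlapping matches included. The GC box GGGCGG stood in the windows of 18 of 31 member genes (58.1%) and in 35.9% of all 27025 windows, which include those of non-coding genes. The TATA box TATAAA stood in 0 of 31 and in 14.2% of all windows. The core GAGGAA of sites for PU.1, a transcription factor of myeloid cells, stood in 11 of 31 (35.5%) and in 28.3% of all. The median GC content of the windows was 59.3% for the member genes and 52.7% for all, and its part in these shares was not tested. None of the 3 motifs contains another, and a match is only a match of letters. Windows of 3 genes are printed, all 300 bases long, to show L1cam, the member with the widest range, Ctnna2, the neuronal alpha catenin, whose window held the most GC boxes among the members, and Itgam, a leukocyte integrin whose window held the most PU.1 cores. Capitals mark GC boxes in L1cam (chrX:73880741-73881040, minus strand) and Ctnna2 (chr6:77979618-77979917, minus strand), and PU.1 cores in Itgam (chr7:128062390-128062689, plus strand).
L1cam: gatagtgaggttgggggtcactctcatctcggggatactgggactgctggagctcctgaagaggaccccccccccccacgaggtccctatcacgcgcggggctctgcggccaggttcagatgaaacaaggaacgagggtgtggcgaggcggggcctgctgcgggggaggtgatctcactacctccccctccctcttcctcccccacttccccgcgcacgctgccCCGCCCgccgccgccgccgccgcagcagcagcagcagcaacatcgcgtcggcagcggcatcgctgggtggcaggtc
Ctnna2: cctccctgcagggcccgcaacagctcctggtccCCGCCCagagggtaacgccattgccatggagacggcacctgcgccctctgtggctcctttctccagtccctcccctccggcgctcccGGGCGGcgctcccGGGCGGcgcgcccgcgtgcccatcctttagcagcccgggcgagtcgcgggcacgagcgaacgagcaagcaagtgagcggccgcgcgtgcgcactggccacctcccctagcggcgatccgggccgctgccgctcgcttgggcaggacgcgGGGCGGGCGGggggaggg
Itgam: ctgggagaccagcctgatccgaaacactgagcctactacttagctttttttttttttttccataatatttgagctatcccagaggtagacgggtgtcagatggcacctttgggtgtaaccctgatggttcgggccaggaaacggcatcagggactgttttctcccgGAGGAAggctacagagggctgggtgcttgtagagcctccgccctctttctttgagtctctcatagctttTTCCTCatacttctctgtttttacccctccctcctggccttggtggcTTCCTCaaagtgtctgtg
The L1cam window held 1 GC box and 25 CpG pairs and the Ctnna2 window 5 GC boxes and 38 CpG pairs. The Itgam window held 3 PU.1 cores, 6 CpG pairs and a GC content of 50.3%, against 69.3% in L1cam and 75.3% in Ctnna2. Only 1 motif is marked in each window: that of Itgam also held 1 GC box and that of L1cam 1 PU.1 core.

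Among the cadherins 9 of 16 probe sets, each of a different gene, were tested. Cdh2, N-cadherin, the main cadherin of excitatory synapses, was one of the 4 steadiest members, with 872, 847, 773 and 842 (SD 0.07 on the log2 scale). Cdh13, T-cadherin, which lacks a transmembrane tail and is anchored by lipid, had the widest range of the family (1.63) with 557, 189, 286 and 332.5. The 1-hour sample was its highest and the 2-hour sample its lowest value, at 1.14 (SD of the other 3, 0.44) and -1.04 (SD 0.52), and without the 2-hour array the 1-hour difference was 0.89. Cdh4, R-cadherin, followed the same order of samples with 290.4, 147, 160.1 and 233 (range 1.06). Cdh6 had 99.7, 138, 66.2 and 135 (range 1.01) and Cdh8, a cadherin of forebrain circuits, 164, 240.5, 115 and 198 (0.99). Both were lowest in the 4-hour sample and neither was highest or lowest in the 1-hour sample.

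The remaining tested cadherins stayed within 2-fold. Cdh10 had 205, 164, 249.8 and 310.1, and Cdh11, a cadherin also common in mesenchymal cells, 368, 264, 215 and 307. Cdh1, the epithelial E-cadherin, had 359.6, 333, 376 and 447, and Cdh3, P-cadherin, 317, 406, 305 and 398. All 9 tested cadherins lay above the mean of the other 3 samples at 6 hours, by 0.01 to 0.60 with a median of 0.23, while 50.1% of all tested probe sets did. Without the 1-hour sample it was again 9 of 9, without the 2-hour sample 7 of 8 and without the 4-hour sample 6 of 9. Cdh1 lay above by 0.31 (SD of the other 3, 0.11), Cdh10 by 0.60 (SD 0.33) and Cdh6 by 0.51 (SD 0.48), so that for Cdh6 the gap was about the size of the spread. In the same sample 7 of 7 tested oligodendrocyte markers were higher too, with a median of 0.45, as were 7 of 10 neuron markers (median 0.30, summed signal 46421). Endothelial and mural markers were higher in 2 of 7 (median -0.62) and meningeal markers in 1 of 6 (median -0.35). Of the oligodendrocyte list 8 of 10 had a probe set, its summed signal was 25785 at 6 hours and 20445 to 23403 before, and Cnp, a myelin enzyme, was below the floor throughout. The part of these lists in the cadherin count was not tested. The untested cadherins were Cdh9, a cadherin of mossy fibre synapses, with 59.2, 73.7, 16.7 and 21.9, Cdh15, the muscle cadherin, at 13.7 to 128 over its 2 probe sets, and Cdh16, the kidney cadherin, at 36.6 to 74.2. Second probe sets of Cdh3 (32.9 to 102) and Cdh4 (3.3 to 60.7 over 2) were dim as well.

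Protocadherins, which resemble cadherins outside the cell but do not bind catenins, were dim on this array. The 2 probe sets of Pcdh7 had 8.9 to 39.1 and Pcdh12, a protocadherin of endothelium, 41.4 to 52.0. None was tested.

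The catenins were the steadiest of the larger families: 9 of 11 probe sets were tested, 0 of them had a range of 2-fold or more, and the median SD was 0.18, against 0.40 for the tested cadherins and 0.25 for all tested probe sets. These are descriptions of 4 samples, and the difference between families was not tested. Ctnnb1, beta catenin, which links cadherins to alpha catenin and carries Wnt signals to the nucleus, had 6564, 5077, 5554 and 4685 (range 0.39). Ctnnd2, the neuronal delta catenin of dendrites and spines, had 5262, 5969, 5046 and 6285 (0.32). Ctnnbip1, which keeps beta catenin from its transcription partners, had 521, 608.5, 639 and 737 (0.44), the only tested catenin probe set whose signal was higher at each later time. Ctnna1, the epithelial alpha catenin, had 543, 337.5, 418 and 462 (0.75), and its second probe set 25.6 to 82.0. Ctnnal1, an alpha catenin relative, had 47.9 to 89.9 and was not tested.

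Several probe sets of a gene often ordered the samples differently. Of 20 member genes with more than 1 probe set, 9 had more than 1 tested, and in 1 of these 9, Itga7, did all tested sets share both the highest and the lowest sample. The sign of the 1-hour difference was shared in 2 of the 9, Itga7 and Ctnna2. Ctnna2 had 1441, 1209, 1379 and 1501 with 92228_at, 429.6, 290.4, 366 and 244 with 92227_s_at, and 199.5, 199, 165 and 144 with 161318_f_at, so that the 6-hour sample was the highest by the first and the lowest by the others. Ctnnd1, the catenin that binds the inner tail of cadherins near the membrane, had 2002, 1821, 1675 and 1777 with one set and 151, 228, 139 and 210.3 with the other. Both were lowest at 4 hours, but the highest sample differed. Which part of a transcript each set targets was not used here, and 12 of the 40 tested members carry an identifier that marks possible cross-hybridization or a partial probe set.

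**Figure D4:**
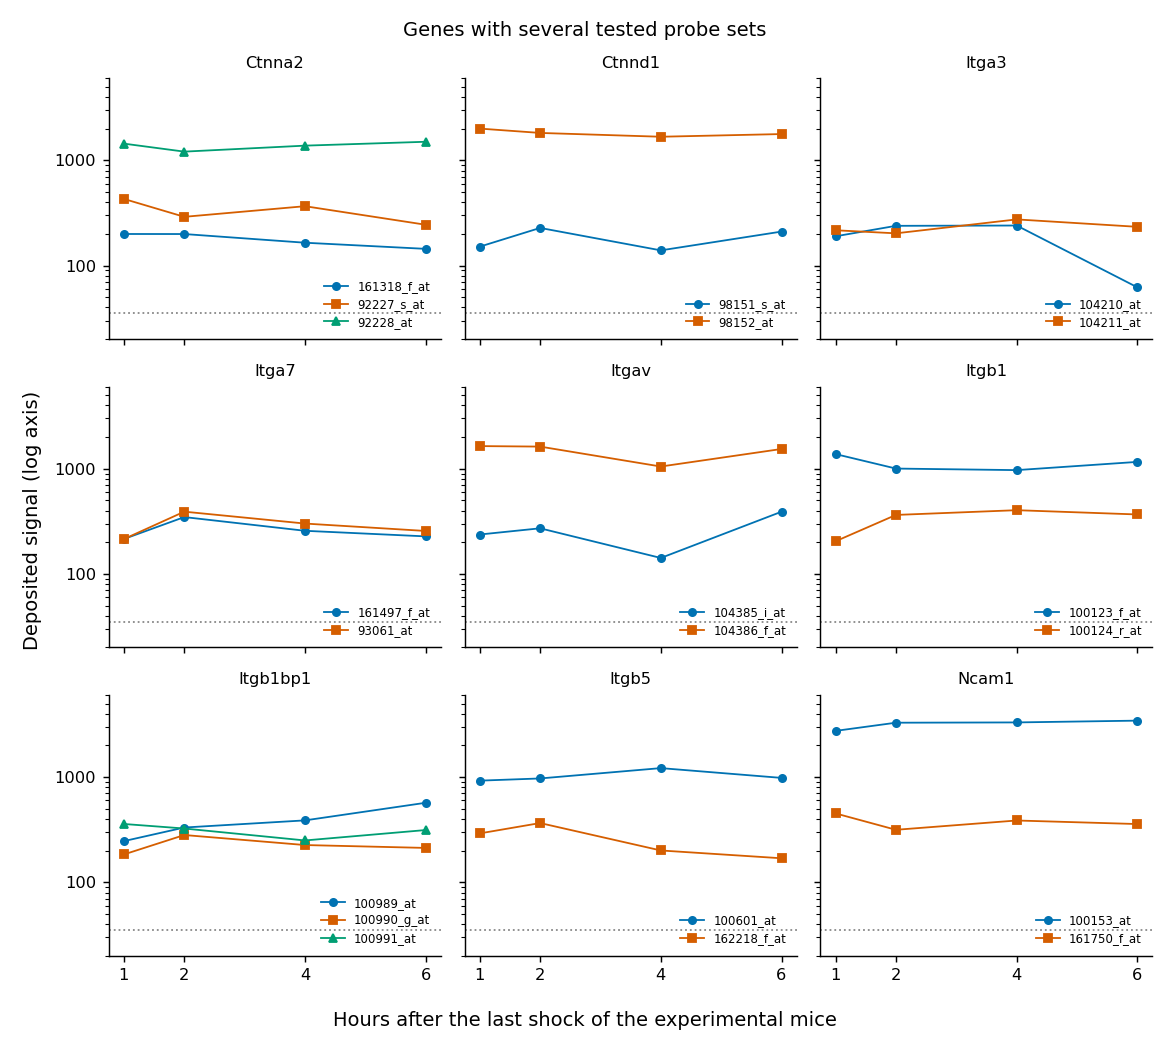
Deposited signal (vertical axis, log scale) of the 9 adhesion genes with several tested probe sets, against hours after the shock of other mice (horizontal axis); each point is 1 sample, each colour and symbol a probe set, lines only join points, and the dotted line is the floor of 35.1. The sets run in parallel for Itga7 and apart for Itga3 and Itgb1.

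Integrin chains that pair for laminin and collagen came next. Itgb1, the beta 1 chain shared by most matrix receptors, had 1376.5, 1003, 969 and 1161 with probe set 100123_f_at and 204, 364, 403 and 367 with 100124_r_at. The 1-hour sample was the highest by the first (0.42, SD of the other 3, 0.14) and the lowest by the second (-0.85, SD 0.10), although the annotation ties both to the same source sequence. Itga3, a laminin receptor chain, had 189.7, 238.5, 240.1 and 62.1 with 104210_at, where the 6-hour sample lay alone at the bottom (-1.82, SD of the other 3, 0.17, and -0.98 with the higher floor). The other set, 104211_at, had 216, 202, 274.5 and 233 and put the 6-hour sample among the rest (0.02, SD 0.25). Itga7, the laminin receptor chain best known from muscle, had 214.5, 391, 301 and 256 and 215, 347, 257 and 227 with its tested sets, highest at 2 hours (0.57, SD 0.24, and 0.54, SD 0.13) by both. The remaining Itga7 set was below the floor in all samples. Itga2, a collagen receptor chain, had 105, 134, 89.5 and 115.5 and stayed within 2-fold.

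Itgb4, the partner of Itga6 in the laminin receptor of epithelial hemidesmosomes, had 388, 137, 236.5 and 281 (range 1.59). Its samples stood in the order of Cdh13 and Cdh4, highest at 1 hour (0.94, SD of the other 3, 0.57) and lowest at 2 hours (-1.17, SD 0.37), and without the 1-hour sample the 2-hour difference was -0.98. Markers of choroid plexus and ependyma lay partly in the same direction at 1 hour, with 6 of 9 having a probe set and 5 tested. Of the 5, Ttr, Calml4 and Kl were higher (3.39, 1.34 and 0.47), Igfbp2 was level (0.00) and Foxj1, of ciliated ependyma, was lower (-0.42). The summed signal of the 6 markers with a probe set, the untested Folr1 included, was 3579 at 1 hour and 1287 to 1662 later. It was carried at 1 hour by Ttr, the transthyretin of choroid plexus, with 2246, 199, 353 and 143, while Calml4 had 228, 62.8, 86.5 and 142. No marker of that list was below the floor in all samples, and its part in the Cdh13, Cdh4 and Itgb4 values was not tested. Itga6 itself had 65.8, 87.9, 13.4 and 30.2 and was not tested.

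Of the chains that bind vitronectin and fibronectin, Itgav, the alpha V chain, and Itgb5, a beta chain that pairs with it, were tested. Itgav had 1640, 1622, 1049 and 1539.5 with 104386_f_at and 237, 271, 142 and 390.2 with 104385_i_at. Both, which the annotation ties to 1 source sequence, were lowest at 4 hours, at -0.61 (SD of the other 3, 0.05) and just short of 1 log2 unit (SD 0.36). The untested Itgav set, 98366_at, had 52.8, 12.7, 50.7 and 12.3 and put the 4-hour sample among its higher values. Itgb5 had 925, 970.3, 1217 and 982 with 100601_at, highest at 4 hours (0.33, SD 0.03), but 292, 366, 201 and 169 with 162218_f_at, lowest at 6 hours (-0.72, SD 0.42). Itga5, the fibronectin receptor chain, at 13.4 to 18.3, and Itgb3, the beta chain of platelets, at 10.8 to 30.5, were below the floor in all samples. Itga8 had 11.2 to 66.3 over 2 probe sets and Itga4, a chain of lymphocytes, 3.0 to 90.5 over 3, none of them tested.

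Itgb1bp1, which holds the beta 1 chain inactive, had the smallest trend p of the members. Its set 100989_at had 246, 332, 388 and 569.9, higher at each later time. The other sets had 184, 281, 226 and 212 (100990_g_at) and 358, 324.5, 249.9 and 314 (100991_at), with trends of -0.01 ± 0.41 and -0.27 ± 0.35 (SE), although 100990_g_at and 100989_at are tied to 1 source sequence.

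Integrins of leukocytes and microglia came last. Itgam, the alpha M chain by which microglia are often stained, had 11.7 and 13.1 at 1 and 4 hours, below the floor, and 153 and 116 at 2 and 6 hours. Itgal, the alpha L chain of lymphocytes, had 40.7, 37.2, 41.2 and 125, high in the 6-hour sample alone. Itgb2, the beta chain that pairs with both, had 104, 61.8, 104 and 73.3, in an order that neither alpha chain shared. None of these 3 reached the filter for tests. Itgax, the alpha X chain of dendritic cells and some microglia, was tested, with 156, 92.8, 143 and 280.0, lowest at 2 hours (-1.06, SD of the other 3, 0.51) and highest at 6 hours (1.13, SD 0.44, and 0.88 without the 2-hour array). Itgb7, a beta chain of gut-homing lymphocytes, had 284, 325, 251 and 261 with its tested set and 82.1, 23.7, 76.3 and 127 with the other, and Itgae, the alpha E chain, had 4.0 to 82.2 over 2 sets. Itgb2l had 86.4, 30.5, 131 and 104.

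Of the 12 microglia and leukocyte markers all had a probe set and 9 were tested, 1 of them with a range of 2-fold or more. The summed signal of all 12 was 10117, 9467, 10903 and 10050 in the order of hours. Csf1r, the receptor that microglia need to live, had 1701, 1487, 1820.3 and 1386, and Cx3cr1, their fractalkine receptor, 324, 368, 365 and 478. Ptprc, the common leukocyte antigen, had 45.6 at 1 hour, just above the floor, and 6.8 to 30.7 later, below it. At 6 hours 6 of the 9 were higher, with a median of 0.09.

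**Figure D5:**
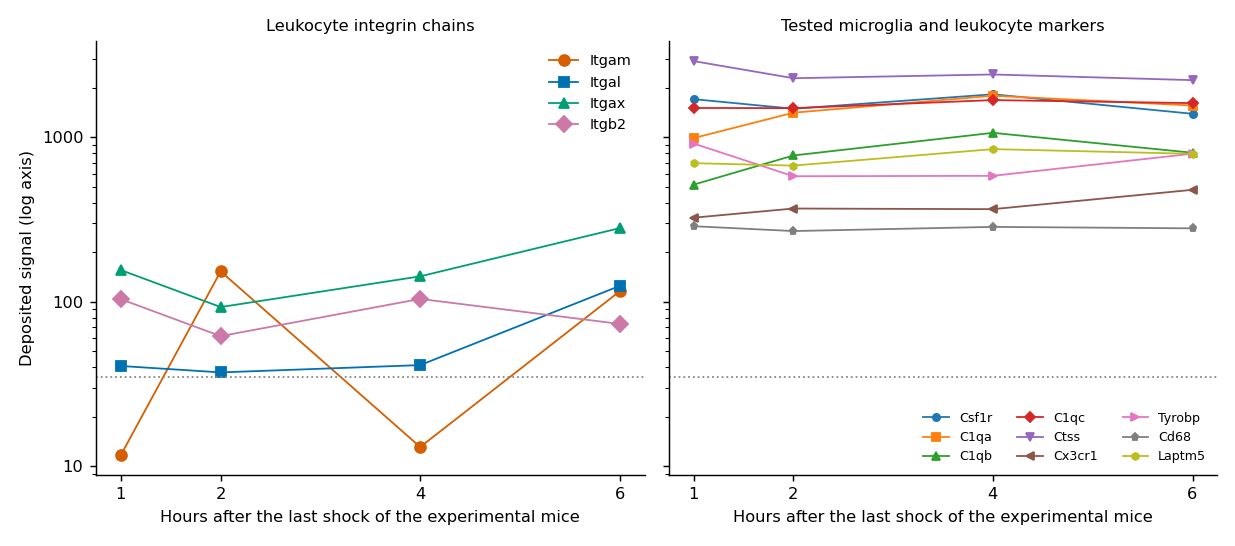
Deposited signal (vertical axis, log scale) of 4 leukocyte integrin chains (left) and of the 9 tested microglia and leukocyte markers (right), against hours after the shock of other mice (horizontal axis); each point is 1 sample, lines only join them, and the dotted line is the floor of 35.1. Itgam, which was not tested, lies below the floor at 1 and 4 hours. The markers on the right passed the filter on signal and stay above the floor. Untested markers of that list are not drawn: Ptprc and Fcer1g were below the floor from 2 hours on, while Aif1 stayed above it.

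Counted by sample, a gap of 1 log2 unit or more to the other 3 was met at 1 hour by 1 tested member above (Cdh13, background 1.76%) and 1 below (L1cam, background 4.55%). At 2 hours L1cam lay above (background 1.25%), its mean of the other 3 being lowered by the 1-hour bound, and Cdh13, Itgb4 and Itgax below (3 of 40, background 1.72%). At 4 hours there were 0 above (background 1.07%) and 0 below (background 1.93%). At 6 hours Itgax and, for the same reason as at 2 hours, L1cam lay above (background 1.53%) and the 1 set of Itga3 below (background 1.61%). The median difference of the 40 members was 0.00, 0.05, -0.08 and 0.11 in the order of hours, and that of all tested probe sets 0.05, 0.01, 0.01 and 0.00.

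Partners of these molecules were taken from 4 lists: partners of cadherins and catenins, partners of integrins, integrin ligands, and other immunoglobulin adhesion molecules with their enzymes. Of 82 genes 62 had a probe set and 53 were tested, each by the one with the highest mean. None had an adjusted p under 0.05 for the trend in limma (0 of 53), and at an unadjusted p under 0.05 there were 5 with a positive (background 3.61%) and 0 with a negative trend (background 2.66%). The 5 were Mag, the myelin-associated glycoprotein (1.40), Cd81, a tetraspanin that binds integrins (0.71), Mcam, an adhesion molecule of vessels (1.08), Pxn, the focal adhesion scaffold paxillin (1.25), and Icam5, the dendritic ligand of leukocyte integrins (0.87). The limma adjusted p was 0.738 for each of the 5. A range of 2-fold or more was seen in 9 of the 53 (17.0%, background 17.8%), 0 of them among the 11 cadherin and catenin partners, 1 of 14 integrin partners, 3 of 12 ligands and 5 of 16 immunoglobulin molecules and enzymes.

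At 1 hour 0 of the 53 partners exceeded the other samples by 1 log2 unit (background 1.76%) and 5 fell short by as much (background 4.55%), beside a Gapdh ratio of 4.52 and a beta-actin ratio of 2.34. Bsg, basigin, a companion of lactate transporters, had 1776 against 4288 to 4514 (-1.33), Pxn 123 against 236 to 341 (-1.25), and Mag 487 against 958 to 1478 (-1.27). Icam5 had 1754.5 against 3131 to 3860 (-1.01) and Lama2, a laminin chain, 81.3 against 155 to 203 (-1.08). All 5 were lowest at 1 hour, and the part of RNA state in these values was not tested. Enzymes of the lists that add sialic acid differed from each other. St8sia3 had 1156, 1210.5, 1172 and 1223, St8sia4 513, 357, 312 and 322, and St8sia2 335, 176, 481 and 469. Thy1, a lipid-anchored neuronal surface protein, had 16086, 12972, 12171 and 12599, and Nrcam, a relative of L1cam, 1092, 1362, 1021.5 and 1357, so that neither showed the drop of L1cam at 1 hour.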

How the data were processed

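Each of the 4 arrays was taken as 1 sample of 1 group, the handled controls. The deposited value table holds an intensity on a linear scale for each of 12488 probe sets. Its trimmed mean (2% off either end) is 500.3 on every array, so a global scaling by the authors is read from the values. The array software is not given in the sources used here. The 66 control probe sets were kept out of tests. Of the other 12422, 10833 had 1 symbol in the array's annotation, 396 had several and 1193 had none. All 75 members matched the reference gene table of GRCm38.p6 by gene identifier, with the same symbols. Their probe set numbers are the array's own.

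Arrays were brought to the same quantiles, a floor was set at the 20th percentile of non-control probe sets (35.1), and log2 was taken. The filter and a trend with time (limma 3.58.1 in R 4.3.3, lmFit, eBayes with an intensity trend, Benjamini-Hochberg over 7453 probe sets, 2 residual degrees of freedom, two-sided) were fitted on the whole table and tested on simulated data. Differences of a sample from the mean of the other 3 have no replicated test, and Dixon's ratio was used only to list single samples that stand apart. A background is the share of all tested probe sets that meet the same criterion. Named members are those with a range or a difference of 1 log2 unit or more, the 4 with the smallest trend p and the 4 with the smallest range, genes with several probe sets, and preset genes, of which Cntn2 and Pcdh1 found no match. The other members are given by range. Members, lists and settings were chosen with earlier results of these data known. Alternatives were other scalings, floors, filters, a pseudocount of 32, no cross-hybridization sets, and each array left out. Figures used matplotlib 3.10.9 in Python 3.11.15.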

Additional observations from a re-analysis of the deposited data

Results flagged for a closer look

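In 4 of the 40 tested members 1 sample stood apart from the other 3 by Dixon's ratio at its 95% critical value, against 6.84% of all tested probe sets, where chance alone gives about 1 in 20. They were L1cam in the 1-hour sample (22.4), Itga3 with 104210_at in the 6-hour sample (62.1), Itgav with 104386_f_at in the 4-hour sample (1048.8) and Itgb5 with 100601_at in the 4-hour sample (1216.6). For Itga3 and Itgb5 the other tested probe set of the gene did not place that sample apart from the rest. L1cam has no second probe set in this set, and no cause was tested for any of the 4.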

How the results depend on the processing

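No member passed the trend test under any alternative, with 2 to 5 of them at an unadjusted p under 0.05 (1 without sets marked for cross-hybridization). Over all probe sets the trend fit called 0 to 3 when 1 array was left out, 3 of them without the 2-hour array. The count of members with a range of 2-fold or more, 10, was 4 to 8 with 1 array left out (6 without the 1-hour, 4 without the 2-hour and 4 without the 6-hour array). Over the 2-, 4- and 6-hour samples the count, 6, was 10 with no filter, 3 with the pseudocount, and 0 to 4 with 1 array left out. A range over fewer samples is narrower by construction. Members 2-fold or more from the other samples at 1 hour, 2 in number, were 1 with no filter, where L1cam falls out because only sets above the floor in every sample are kept, and 1 to 3 with 1 array left out. At 2 hours, 4 became 2 with values as deposited, 2 with the higher floor, 1 with the pseudocount and 1 to 5 with 1 array left out. At 4 hours, 0 became 1 with values as deposited, 1 with equal medians, and 1 to 3 with 1 array left out. At 6 hours, 3 became 1 with the higher floor, and were 2 to 3 with 1 array left out. The 6-hour median, 0.11, was 0.00 to 0.12 with 1 array left out.

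Of 317 recomputed differences of 37 named members, 308 kept their side of 1 log2 unit, 5 fell under it, 4 (all of Itgav 104385_i_at) passed it and 0 reversed. Those that fell were Cdh13 (0.89) and Itgax (0.88) without the 2-hour array, Itgb4 (-0.98) without the 1-hour array, Itga3 (-0.98) with the higher floor and Itgax (0.96) with the pseudocount. The count of cadherins above the other samples at 6 hours was checked after the data had been seen. No paired analysis was possible because the labels give 1 group.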
